A study of Mus musculus with 2 samples.

Results

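The BCL2 family was taken here as 10 genes, Bcl2, Bcl2l1, Mcl1, Bax, Bak1, Bbc3, Pmaip1, Bid, Bcl2l11 and Bad, chosen by name as the rows of the count matrices that carry these symbols. All 10 were found, each on 1 row, among 19059 genes. The tumors were grown orthotopically in C57BL/6 mice, 6 to 8 weeks old, from mGSC, a single line of mouse glioblastoma stem cells that is Trp53+/- and Nf1+/-, so both groups carry the same tumor genotype. The mice, female by the study's methods, received vehicle or Xevinapant at 50 mg/kg per day by oral gavage for 7 days, with 4 tumors in each group. Xevinapant is a SMAC mimetic, a small molecule that binds the inhibitors of apoptosis cIAP1, cIAP2 and XIAP. Cells were fixed and their RNA was read through gene probes, which gave a number of unique molecular identifiers (UMIs) per gene and cell.

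Proteins of this family decide whether the outer mitochondrial membrane stays intact. BCL2, BCL-XL (Bcl2l1) and MCL1 hold the membrane closed, BAX and BAK (Bak1) form the pores that release cytochrome c and SMAC, and the BH3-only proteins BIM (Bcl2l11), BID, PUMA (Bbc3), NOXA (Pmaip1) and BAD either bind the first group or activate the second. Xevinapant imitates the SMAC that leaves mitochondria at this step. Neutrophils are known to depend on MCL1 and mature T cells on BCL2.

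The 8 matrices held 4505 to 14728 barcodes and 71835789 to 300206053 UMIs each. The sample labels give each group a pooled library and a batch date of its own, so treatment and batch cannot be told apart. Vehicle matrices 1 and 3, Xevinapant matrices 1 and 2 and Xevinapant matrices 3 and 4 were alike in gated cell makeup (chi-square divided by its degrees of freedom, 0.39 to 1.43), unlike the 9 other pairs of a group (6.04 to 51.2). In tumor cell expression these 3 pairs differed by 2.26 to 9.50 times the sampling variance and the other pairs by 33.8 to 95.3 times. Each alike pair was joined, which left 3 vehicle and 2 Xevinapant samples. A full barcode was found in both groups 1413 times, and in 1121 of these 1 copy had at least 50 times fewer UMIs than the other, with a median ratio of 167 to 174 by matrix number. These low copies, of which 656 otherwise passed the tumor gate, were removed before the results below, and the treatment fits were repeated with them.

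Cells were gated by the UMIs of marker genes in every 10000 UMIs of a cell, and a level is given as CPM, a gene's UMIs scaled to the total UMIs, both summed over the cells of a sample and class. Of 50060 cells kept, 44556 passed 1 gate: 41252 tumor cells, 1330 macrophages and monocytes, 591 microglia, 489 fibroblasts, 335 neutrophils, 207 endothelial cells, 155 T and NK cells, 74 erythroid cells, 50 mural cells, 37 dendritic cells and 36 B cells. A further 1233 cells passed gates of different lineages, 380 lay between 2 myeloid or mesenchymal classes, and 3891 cells with a median of 1264 UMIs passed none. Classes were tested where a sample held at least 10 cells, which left out neutrophils of vehicle 2 and vehicle 4 and T and NK cells of vehicle 2. The class gates also cut a continuous range, with 1624 cells near the microglia threshold (0.8 times it to the threshold divided by 0.8), 536 near that of macrophages and monocytes, 365 near that of mural and 180 near that of dendritic cells. Macrophage and monocyte markers summed to 2757 to 3408 CPM in microglia, beside 3866 to 4102 CPM of microglia markers, and to 8732 to 13124 CPM in macrophages and monocytes. Ptprc, Tyrobp, Coro1a and Csf1r, which no gate used, summed to 5803 to 7045 CPM in microglia and to 20.2 to 40.2 CPM in tumor cells. Tumor transcripts that no gate used stood in the samples of the 6 other tested classes at 3.63% to 16.7% of their level in tumor cells, a measure of free RNA and mixed droplets. In the small classes this share ran from 0.0% in several samples to 25.4%, 33.3% and 32.8% in the erythroid cells of vehicle 4, Xevinapant 1 and 2 and Xevinapant 3 and 4. The order of classes is given among the 7 tested classes, and dendritic, B, mural and erythroid cells stand outside it. These small gates were left out of the tests of classes, also where some of their samples held at least 10 cells. The probe number differs between genes, so levels are compared between classes and samples within a gene and never between genes.

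Bcl2, which protects long-lived lymphocytes, was highest in T and NK cells. There it stood at 416 and 289 CPM in the vehicle samples and at 818 and 504 CPM in the Xevinapant samples, against 12.6, 13.04 and 23.6 CPM in vehicle tumor cells and 23.5 and 23.7 CPM in Xevinapant tumor cells. Every T and NK cell sample lay above every sample of every other tested class. The log2 difference from tumor cells was 4.63 ± 0.24 (SE; edgeR quasi-likelihood test, adjusted p = 5.7e-18). Endothelial cells came next among the tested classes at 61.0, 90.0 and 92.6 CPM with vehicle and 160 and 107 CPM with Xevinapant, and their log2 difference from tumor cells was 2.74 ± 0.24. The B cell gate, left out of the ranking, held 9 UMIs of Bcl2, or 149 CPM (exact 95% Poisson interval 67.9 to 282 CPM). Microglia had 47.0 ± 12.2 CPM (SD, n = 5) and, with 66.5 CPM in vehicle 2, overlapped endothelial cells. Macrophages and monocytes had 29.8 ± 10.7 CPM (SD, n = 5), in a range that overlapped that of microglia. Neutrophils held 1 Bcl2 UMI in 335 cells, a level of 1.9 CPM with an exact 95% Poisson interval of 0.0 to 10.7 CPM, below the 12.6 to 23.7 CPM of tumor cells. EdgeR called Bcl2 lower there (adjusted p = 0.034) on that 1 UMI, and no longer called it without vehicle 1 and 3 or without Xevinapant 1 and 2. Poisson intervals given here cover counting error only.

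Mcl1, the short-lived guardian on which granulocytes depend, followed another order. In neutrophils it reached 1822 CPM with vehicle and 2523 and 2572 CPM with Xevinapant, while tumor cells had 125, 117 and 126 CPM with vehicle and 139 and 161 CPM with Xevinapant. Neutrophils of vehicle 2 and vehicle 4, left out with 8 cells each, stood at 2447 and 2614 CPM, near the Xevinapant samples. The log2 difference of neutrophils from tumor cells was 4.57 ± 0.22 (adjusted p = 3.0e-19). Macrophages and monocytes were second among the tested classes at 853, 700 and 883 CPM with vehicle and 750 and 1016 CPM with Xevinapant, above every sample of the tested classes that followed, while the small B cell and dendritic cell gates had 891 and 738 CPM. Microglia (426 ± 43.1 CPM, SD, n = 5), T and NK cells (397 ± 66.8 CPM, SD, n = 4) and endothelial cells (362 ± 77.0 CPM, SD, n = 5) overlapped their neighbours in this order. Fibroblasts had 186 ± 22.0 CPM (SD, n = 5) and tumor cells were lowest at 134 ± 17.1 CPM (SD, n = 5), and neither overlapped its neighbour.

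Bcl2l1, which encodes BCL-XL, was also highest in neutrophils. It stood there at 639 CPM with vehicle and 378 and 627 CPM with Xevinapant, in microglia at 189, 253 and 137 CPM with vehicle and 264 and 238 CPM with Xevinapant, and in tumor cells at 71.9, 61.0 and 85.5 CPM with vehicle and 84.6 and 104 CPM with Xevinapant. Neutrophils lay above all other tested classes without overlap. Macrophages and monocytes (262 ± 23.7 CPM, SD, n = 5) overlapped microglia, and the log2 differences from tumor cells were 2.25 ± 0.16 and 1.74 ± 0.16 in these classes and 3.06 ± 0.21 in neutrophils. In T and NK cells the difference was 0.62 ± 0.27 (adjusted p = 0.057), in endothelial cells -0.15 ± 0.23 (adjusted p = 0.61) and in fibroblasts -0.28 ± 0.19 (adjusted p = 0.21). The erythroid gate, left out of the tests, had 404 CPM of Bcl2l1 from 46 UMIs in 74 cells (exact 95% Poisson interval 296 to 538 CPM), within the range of the neutrophil samples.

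The pore-forming members had overlapping levels in most classes. Bax lay between 149 ± 37.7 CPM (SD, n = 5) in fibroblasts and 368 ± 34.7 CPM (SD, n = 5) in macrophages and monocytes, and every class overlapped its neighbour in the order of levels. In tumor cells Bax stood at 242, 313 and 213 CPM with vehicle and at 245 and 271 CPM with Xevinapant, inside the range of the other classes. Its log2 difference from tumor cells was 1.09 ± 0.15 in macrophages and monocytes and 0.68 ± 0.15 in microglia (adjusted p = 5.2e-08 and 0.00015). Bak1 had its highest mean in microglia, at 276, 231 and 273 CPM with vehicle and 273 and 246 CPM with Xevinapant, against 109, 98.2 and 92.3 CPM and 100 and 109 CPM in tumor cells. Its range in microglia overlapped that in macrophages and monocytes (217 ± 31.1 CPM, SD, n = 5), and it reached 261 CPM in T and NK cells of Xevinapant 1 and 2. Its log2 differences from tumor cells were 1.72 ± 0.14 in microglia and 1.66 ± 0.14 in macrophages and monocytes, and Bak1 passed the test as higher in all 6 classes, though in fibroblasts its direction turned with library size only (0.52 ± 0.15 against -0.24 ± 0.14).

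**Figure D1:**
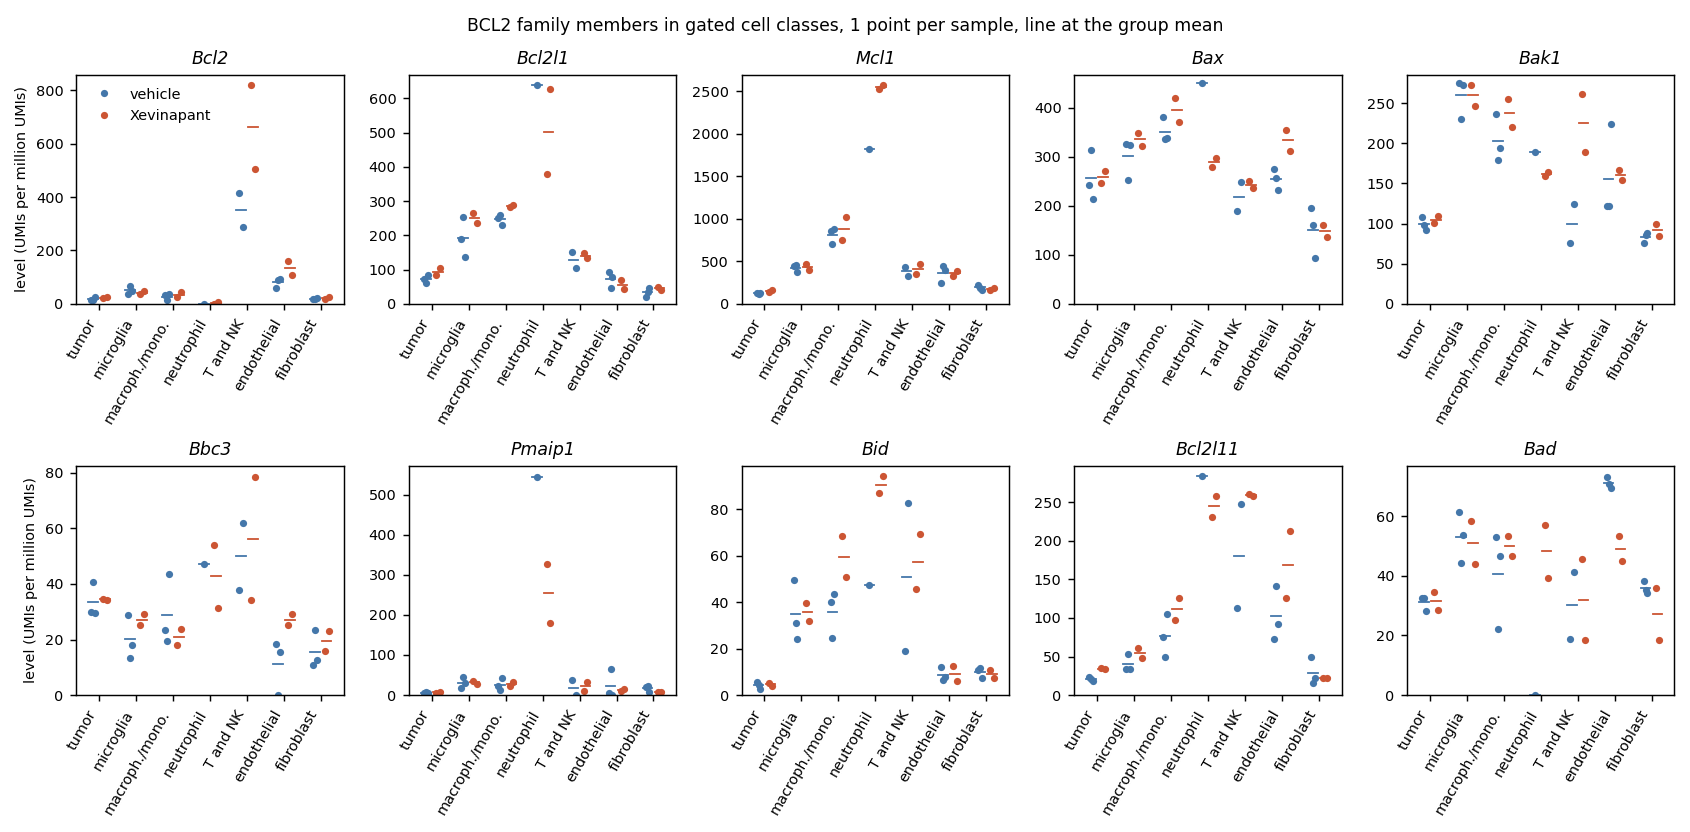
Level of each BCL2 family member (vertical axis, CPM, from 0) in 7 gated cell classes (horizontal axis), with 1 point per sample of at least 10 cells, vehicle in blue and Xevinapant in red, and a line at the mean of each group. Mcl1, Bcl2l1 and Pmaip1 are highest in neutrophils and Bcl2 in T and NK cells, while for Bax every class overlaps the next in the order of levels. Scales differ between panels and levels of different genes cannot be compared, since the number of probes per gene differs.

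Among the BH3-only members, Bcl2l11 and Pmaip1 were marked in neutrophils and Bid was low in tumor cells. Bcl2l11, which encodes BIM, stood at 284 CPM with vehicle and 231 and 259 CPM with Xevinapant in neutrophils and at 113 and 248 CPM with vehicle and 261 and 259 CPM with Xevinapant in T and NK cells. Tumor cells had 23.9, 20.5 and 18.7 CPM with vehicle and 34.6 and 33.7 CPM with Xevinapant. The log2 differences of Bcl2l11 from tumor cells were 3.56 ± 0.28 in neutrophils, 2.96 ± 0.28 in T and NK cells and 2.64 ± 0.22 in endothelial cells (adjusted p = 2.8e-13, 6.6e-11 and 2.4e-12). Neutrophils, T and NK cells and endothelial cells overlapped in that order.

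Pmaip1, which encodes NOXA, the BH3-only partner that targets MCL1, was at 544 CPM with vehicle and at 327 and 180 CPM with Xevinapant in neutrophils. No other tested class had a sample above 64.3 CPM, and tumor cells had 5.49, 7.1 and 6.20 CPM with vehicle and 5.98 and 7.24 CPM with Xevinapant. The log2 difference of neutrophils from tumor cells was 6.22 ± 0.35 (adjusted p = 3.9e-17), on 155 UMIs in the 319 cells of the 3 samples tested. Dendritic cells, left out of the tests, gave 199 CPM of Pmaip1 from 37 UMIs in 37 cells (exact 95% Poisson interval 140 to 275 CPM).

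Bid, which caspase-8 cleaves to link death receptors to mitochondria, was at 5.51, 4.50 and 2.71 CPM with vehicle and 5.25 and 4.09 CPM with Xevinapant in tumor cells. Macrophages and monocytes had 40.0, 24.5 and 43.4 CPM with vehicle and 68.4 and 50.7 CPM with Xevinapant. Every sample of the tumor class lay below every sample of each other tested class. The margin was narrow and rested on few UMIs in endothelial cells, with 5.85 CPM in Xevinapant 3 and 4 against 5.51 CPM in the highest tumor sample. The log2 difference of Bid was 4.58 ± 0.36 in neutrophils, 4.00 ± 0.21 in macrophages and monocytes, 3.65 ± 0.42 in T and NK cells and 3.35 ± 0.22 in microglia. It was 1.22 ± 0.50 in endothelial cells and 1.73 ± 0.29 in fibroblasts. Free tumor RNA, at the share measured above, would give at most 1.6% of the Bid level in these 4 immune classes. For other members the highest such share was 31.8%, for Bbc3 in microglia, and it reached 29.1% for Bcl2l1 in endothelial cells, 28.8% for Bcl2 in neutrophils, 28.4% for Bcl2l1 in fibroblasts, 24.8% for Bbc3 in fibroblasts and 24.2% for Bax in fibroblasts.

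Bbc3, which encodes PUMA, a p53 target, did not follow the other members. It stood in tumor cells at 30.04, 40.6 and 29.4 CPM with vehicle and 34.5 and 34.4 CPM with Xevinapant, and its difference from tumor cells passed the test only in neutrophils, at 0.99 ± 0.41 on the log2 scale (adjusted p = 0.037), and not with library size only (0.47 ± 0.40, adjusted p = 0.31). The other 5 differences ran from -0.42 ± 0.34 in endothelial cells to 0.73 ± 0.39 in T and NK cells. Neighbouring classes overlapped throughout its order. Bad, whose protein binds BCL2 and BCL-XL, ranged from 31.0 ± 14.4 CPM (SD, n = 4) in T and NK cells to 62.3 ± 12.5 CPM (SD, n = 5) in endothelial cells, again with overlap between all neighbours. Its log2 difference from tumor cells was 1.20 ± 0.23 in endothelial cells, 1.14 ± 0.17 in macrophages and monocytes and -0.18 ± 0.43 in T and NK cells.

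Counted over the 10 members, 9 were higher than in tumor cells in microglia and none lower, where 30% of 11580 genes tested were higher and 34.7% lower. In macrophages and monocytes 9 were higher and none lower, against 35.2% and 37.5% of genes, and in neutrophils 9 were higher and 1 lower, against 27.1% and 31.4%. The 9 in neutrophils include Bad, at 32.1 ± 29.2 CPM there (SD, n = 3) and 31.3 ± 2.79 CPM in tumor cells (SD, n = 5). Vehicle neutrophils held no Bad UMI. In T and NK cells 6 were higher (20.9% of genes; none lower, 27.0%), in endothelial cells 8 (26.4%; none lower, 28.4%) and in fibroblasts 6 (32.6%; none lower, 28.6%). The shares of members higher stood above the shares of all genes in each class. Of 10 genes of dissociation and stress, such as Fos, Jun and Hspa1a, 8 were higher and 0 lower in neutrophils. The counts were 8 and 2 in macrophages and monocytes, 6 and 0 in endothelial cells and 4 and 3 in microglia. In T and NK cells they were 1 and 2, and in fibroblasts 2 and 2. The part of stress in the class differences, such as those of Mcl1 and Pmaip1 in neutrophils, was not tested. The median log2 difference of the 10 members was 1.64 in microglia, 1.96 in macrophages and monocytes, 2.09 in neutrophils, 1.13 in T and NK cells, 1.21 in endothelial cells and 0.61 in fibroblasts, beside -0.12, -0.05, -0.33, -0.24, -0.13 and 0.01 over all genes. These values rest on the scaling of the counts (TMM). With library size only, the median of all genes moved to -0.50, -0.63, -0.86, -0.21, -0.43 and -0.75, and in fibroblasts 2 members were higher and 3 lower, where 18.6% of genes were higher and 60% lower, Bax at -0.82 ± 0.15, Bbc3 at -0.98 ± 0.25 and Bcl2l1 at -1.02 ± 0.20, while Bcl2 (-0.04), Bcl2l11 (-0.23), Bak1 (-0.24) and Bad (-0.05) changed sign. Most members, and with them the median of the members, then lay below 0 in fibroblasts. In that fit 6 members were higher in neutrophils and 6 in endothelial cells, where 20.6% and 21.3% of genes were higher. Bbc3 was the 1 member lower in microglia (-0.51 ± 0.24) and in macrophages and monocytes (-0.51 ± 0.22), where 51.3% and 56.8% of genes were lower.

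**Figure D2:**
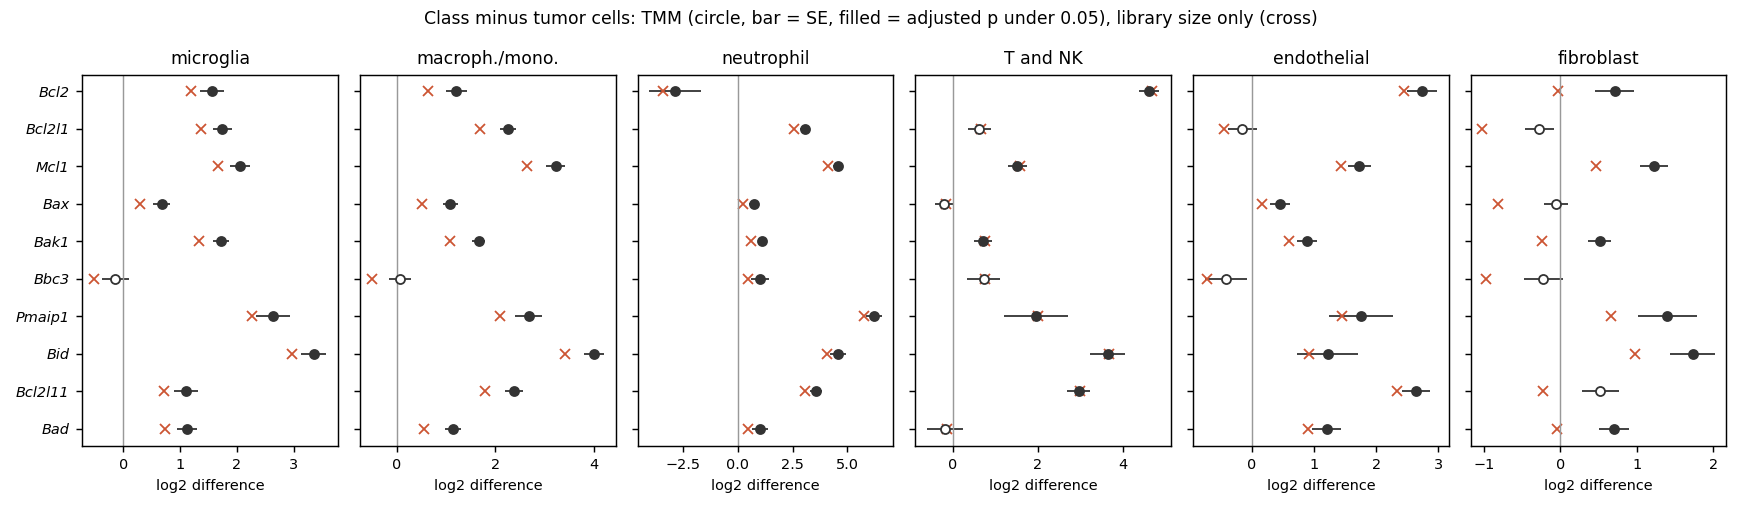
Difference of each member between a class and tumor cells of the same samples (horizontal axis, log2; each panel has its own scale), as circles with bars of 1 SE for TMM scaling, filled where the adjusted p was under 0.05, and as crosses for library size only. The largest differences are those of Pmaip1, Bid and Mcl1 in neutrophils and of Bcl2 in T and NK cells, and the crosses of Bax, Bbc3 and Bcl2l1 in fibroblasts lie below 0.

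Of 16 further BCL2 family genes listed, 11 could be tested against tumor cells. Bcl2a1b and Bcl2a1d, near-identical copies of the guardian A1 whose counts the probes may split, were at 208 ± 14.2 and 24.6 ± 5.97 CPM in microglia and at 1.24 ± 0.28 and 0.09 ± 0.05 CPM in tumor cells (SD, n = 5). In microglia 4 of the 11 were higher and 3 lower, Bok with a log2 difference of -3.00 ± 0.45. In macrophages and monocytes 5 were higher and 2 lower, in neutrophils 6 and 1, in T and NK cells 3 and 5, in endothelial cells 5 and 2 and in fibroblasts 5 and 1. The shares of all genes higher and lower in these fits are those given above for the 10 members, such as 30% and 34.7% in microglia and 20.9% and 27.0% in T and NK cells, and several of the list's counts lie near them. Endothelial cells stood apart for Bok, a BAX-like member, at 329 ± 68.0 CPM against 16.3 ± 3.45 CPM in tumor cells (log2 difference 4.64 ± 0.20), and for the BH3-only gene Bik at 45.1 ± 23.2 CPM against 0.44 ± 0.18 CPM (6.96 ± 0.52). Bmf and Bok had no UMI in T and NK cells, where 3 UMIs would be 7.4 CPM, and are among the 5 counted as lower. With library size only, the counts higher and lower were 3 and 4 in microglia, 3 and 4 in macrophages and monocytes, 4 and 3 in neutrophils, 4 and 5 in T and NK cells, 4 and 2 in endothelial cells and 1 and 4 in fibroblasts. In that fit 22.8% of all genes were higher and 51.3% lower in microglia, 24.4% and 56.8% in macrophages and monocytes, 20.6% and 45.4% in neutrophils, 21.5% and 26.1% in T and NK cells, 21.3% and 41.5% in endothelial cells and 18.6% and 60% in fibroblasts.

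Of 15 genes of the mitochondrial step and its regulators, 13 could be tested. Apaf1, the scaffold of the apoptosome, was higher than in tumor cells in all 6 classes, with log2 differences from 0.93 ± 0.15 in microglia to 1.73 ± 0.17 in endothelial cells. With library size only it passed as higher in all 6 as well, from 0.47 ± 0.15 in fibroblasts to 1.43 ± 0.17 in endothelial cells. Casp9, the caspase it activates, was higher in 4 classes under both scalings, by 2.34 ± 0.31 in neutrophils, 2.04 ± 0.16 in macrophages and monocytes, 1.82 ± 0.17 in microglia and 1.18 ± 0.25 in endothelial cells with TMM. In fibroblasts its direction turned with the scaling, 0.71 ± 0.20 with TMM against -0.05 ± 0.20 with library size only (adjusted p = 0.99), at levels of 13.6 ± 3.63 CPM in fibroblasts and 14.5 ± 1.18 CPM in tumor cells (SD, n = 5). In all, 4 of the 13 were higher and 6 lower in microglia, 4 and 4 in macrophages and monocytes, 3 and 7 in neutrophils, 1 and 4 in T and NK cells, 3 and 6 in endothelial cells and 3 and 3 in fibroblasts. The shares of all genes higher and lower were 30% and 34.7%, 35.2% and 37.5%, 27.1% and 31.4%, 20.9% and 27.0%, 26.4% and 28.4%, and 32.6% and 28.6% in the same order of classes. With library size only, the counts were 4 and 8, 3 and 9, 3 and 9, 1 and 4, 2 and 8, and 1 and 10 in that order, beside the shares of that fit given for the further BCL2 family genes. Vdac1, a channel of the outer membrane, was lower in T and NK cells (-2.08 ± 0.28) and in neutrophils (-1.16 ± 0.27).

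Tumor cells are here the cells past the tumor gate, which shares markers such as Gfap, Dcx and Pdgfra with the state gates. The study used copy-number inference to tell malignant from normal cells. No such call was made here, so normal glial or neural cells in the gate were not separated. By state, these cells differed among themselves. AC-like (astrocyte-like) cells, 3387 of the tumor cells by Mlc1, Gfap, Id4 and Clu, had 44.5, 55.1 and 98.3 CPM of Bcl2 with vehicle and 46.6 and 63.1 CPM with Xevinapant. OPC-like (oligodendrocyte progenitor-like) cells, 25687 in number, had 10.2, 10.4 and 16.04 CPM with vehicle and 19.7 and 16.8 CPM with Xevinapant. The groups of points did not overlap between these states, and the log2 difference of Bcl2 between AC-like and all other tumor cells was 1.99 ± 0.17 (adjusted p = 8.6e-06). Bcl2l1 (0.86 ± 0.05), Mcl1 (0.69 ± 0.04) and Bid (0.84 ± 0.13) were also higher in AC-like cells, and Bbc3 (0.32 ± 0.08) and Bad (0.16 ± 0.06) by less. Bax was lower, at -0.14 ± 0.05 (adjusted p = 0.039), a call that was lost without vehicle 1 and 3, vehicle 2, vehicle 4 or Xevinapant 3 and 4. In all 6 members were higher and 1 lower in AC-like cells, where 31.0% of 14359 genes were higher and 33.4% lower. Of 10 genes of dissociation and stress, such as Fos, Jun and Hspa1a, 7 were higher in the same cells.

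MES-like (mesenchymal-like) cells, 983 by Ndrg1, Akap12 and Wwtr1, had more Bbc3 at 64.4, 95.2 and 85.0 CPM with vehicle and 71.0 and 72.9 CPM with Xevinapant, a log2 difference of 1.26 ± 0.08 from the other tumor cells (adjusted p = 4.1e-08). Bcl2l1 (1.06 ± 0.07), Pmaip1 (0.98 ± 0.21), Mcl1 (0.81 ± 0.09) and Bcl2l11 (0.62 ± 0.15) were higher too, which makes 2 of the 3 guardians and 3 of the 5 BH3-only members. Bak1 (-0.43 ± 0.07) and Bad (-0.31 ± 0.11) were lower. This made 5 members higher and 2 lower, where 21.4% of genes were higher and 27.7% lower. Leaving out any sample other than Xevinapant 1 and 2 left 1 lower member, as did DESeq2. Bnip3, a hypoxia-induced relative, was higher by 2.23 ± 0.12 in the same cells, and so were all 10 stress genes, whose part in these differences was not tested.

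NPC-like (neural progenitor-like) cells, 1063 by Rbfox3, Syp, Dcx and Igfbpl1, had less Bcl2 at 3.89, 11.2 and 9.93 CPM with vehicle and 9.0 and 7.75 CPM with Xevinapant (log2 difference -1.29 ± 0.21). Bbc3 was higher there by 1.10 ± 0.16 and Bcl2l1 by 0.50 ± 0.08, and Bak1 was lower (-0.43 ± 0.09). Thus 2 members were higher and 2 lower, close to the 20.2% of genes higher and 24.6% lower. Hrk, a BH3-only gene of neurons, was higher by 2.28 ± 0.27. In the same cells 5 of 10 stress genes were lower. OPC-like cells, which form most of the rest in the contrasts above and so are not independent of them, had 6 members lower and 2 higher, Bcl2 at -0.97 ± 0.11, Bcl2l1 at -0.82 ± 0.08 and Bbc3 at -0.62 ± 0.05, where 24.8% of genes were lower and 28.8% higher. Of the 2 higher members, Bad (0.21 ± 0.04) and Bak1 (0.13 ± 0.05), Bak1 had an adjusted p of 0.049, and 9 of 10 stress genes were lower. Only 1 member was called higher with library size only, with DESeq2, or without vehicle 1 and 3, vehicle 2, vehicle 4 or Xevinapant 1 and 2.

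Cycling cells were 19404 of the tumor cells by 9 measured proliferation markers. Bbc3 was lower in them, at 20.6, 31.8 and 22.0 CPM with vehicle and 20.5 and 21.1 CPM with Xevinapant against 44.9, 55.3 and 42.8 CPM and 44.1 and 49.3 CPM in cells that were not cycling. No cycling sample reached a sample of the other cells, and the log2 difference of Bbc3 was -0.94 ± 0.06 (adjusted p = 2.4e-06). Bid (-0.67 ± 0.10), Bcl2 (-0.40 ± 0.10), Bcl2l1 (-0.30 ± 0.03) and Mcl1 (-0.09 ± 0.03) were lower as well, while Pmaip1 (0.44 ± 0.06), Bak1 (0.24 ± 0.03) and Bax (0.23 ± 0.03) were higher. The count was 3 higher and 5 lower, where 35.2% of 14336 genes were higher and 37.1% lower. Of the mitochondrial step genes, 10 of 14 were higher and 3 lower in cycling cells, Cycs, which encodes cytochrome c, by 0.51 ± 0.07, and 8 of 10 stress genes were lower. The state gates cut a continuous range: 1288 tumor cells lay between 0.8 times the AC-like threshold and that threshold divided by 0.8, 1454 at that of MES-like, 1039 at that of NPC-like, 8548 at that of OPC-like and 4546 at that of cycling cells.

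**Figure D3:**
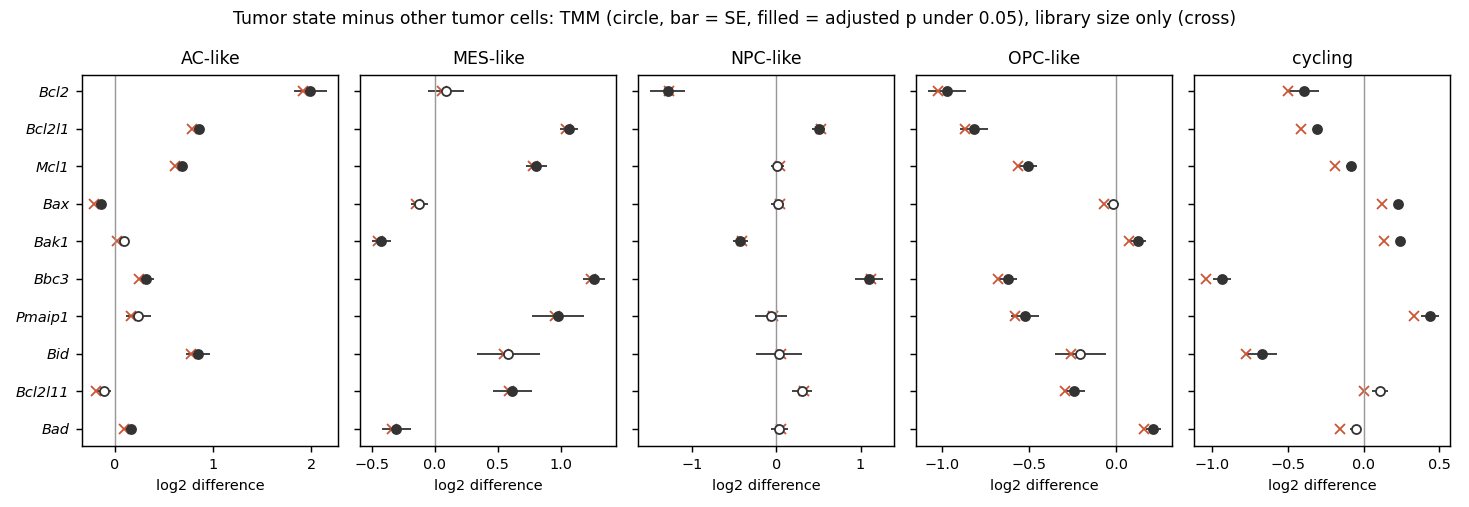
Difference of each member between a tumor state and the other tumor cells of the same 5 samples (horizontal axis, log2; each panel has its own scale), with circles and bars of 1 SE for TMM scaling, filled where the adjusted p was under 0.05, and crosses for library size only. Bcl2 lies at 1.99 in AC-like cells and below 0 in NPC-like and OPC-like cells, and Bbc3 lies above 1 in MES-like and NPC-like cells and below 0 in OPC-like and cycling cells.

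The treatments were then compared within each class, the question of the study's single-cell experiment. Bcl2l11 in tumor cells stood at 34.6 and 33.7 CPM with Xevinapant and at 23.9, 20.5 and 18.7 CPM with vehicle, without overlap, but the difference did not pass the test. Its log2 fold change was 0.65 ± 0.15 (edgeR, p = 0.0033, adjusted p = 0.36 over 14568 genes; p = 0.10 by an exact permutation test, two-sided, where 3 against 2 samples allow nothing smaller). DESeq2 on the same 5 samples gave 0.65 ± 0.16 (adjusted p = 0.00545), and edgeR with each of the 8 matrices as 1 mouse gave 0.62 ± 0.09 (adjusted p = 0.015). Over all alternatives the value ran from 0.58 to 0.74. These calls stand where 2.46% and 6.52% of all genes were called. Mcl1 also did not overlap, at 125, 117 and 126 CPM against 139 and 161 CPM, with a log2 fold change of 0.23 ± 0.11 (adjusted p = 0.43). The 8 markers of macrophages and monocytes summed to 19.3, 15.5 and 17.7 CPM in the tumor gate with vehicle and to 56.3 and 30.7 CPM with Xevinapant, and the 9 of neutrophils to 2.7, 2.7 and 2.3 CPM and to 8.3 and 6.0 CPM, also without overlap. Set against the marker level of these classes, RNA of macrophages and monocytes in this amount would give 1.24 to 1.74 CPM of Mcl1 with vehicle and 3.22 and 2.84 CPM with Xevinapant, and RNA of neutrophils at most 0.44 CPM. For Bcl2l11 it would give at most 0.42 and 0.04 CPM. Cells that also passed a gate of another lineage had been set aside, so these amounts cover only what was left. Fibroblast markers summed to 91.5, 35.7 and 64.5 CPM in the tumor gate with vehicle and to 283 and 95.5 CPM with Xevinapant. The part of RNA from other cells in the differences of Mcl1 and Bcl2l11 was not tested. Non-overlap of this kind with the Xevinapant samples higher was seen in 2 of 10 members and in 22.2% of 16764 genes.

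The other 8 members overlapped between the treatments in tumor cells. Their log2 fold changes were 0.47 ± 0.29 for Bcl2, 0.32 ± 0.16 for Bcl2l1, 0.09 ± 0.36 for Bid, 0.02 ± 0.25 for Pmaip1, 0.02 ± 0.11 for Bak1, -0.01 ± 0.18 for Bbc3, -0.03 ± 0.15 for Bad and -0.04 ± 0.18 for Bax. None of the 10 members was called by edgeR on the joined samples, nor was any other gene (0.0%), while 1789 genes had an unadjusted p under 0.05, Bcl2l11 alone among the members. DESeq2 called 1 member. In Bcl2 the vehicle samples themselves were apart, vehicle 4 at 23.6 CPM being level with the Xevinapant samples. The 10 stress genes summed to 693 to 825 CPM in vehicle and to 1409 and 1744 CPM in Xevinapant tumor cells, and their median log2 fold change was 1.20, none of them called. The makeup of the tumor cells moved as well. Vehicle samples held 3586, 2968 and 6019 cycling beside 3520, 2846 and 5119 not cycling cells, and Xevinapant samples 1919 and 4912 beside 3851 and 6512. MES-like cells numbered 119, 65 and 183 with vehicle and 221 and 395 with Xevinapant. The part of the stress genes and of this makeup in the difference of Bcl2l11 and Mcl1 was not tested. The share of mitochondrial UMIs in tumor cells was 1.02% to 1.18% with vehicle and 0.763% and 0.914% with Xevinapant.

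Within tumor states no member was called by edgeR on the joined samples. In that fit 0.0% of genes were called in AC-like, OPC-like, cycling and not cycling cells, 0.00884% in MES-like and 0.247% in NPC-like cells. Some alternative fits, edgeR on the separate matrices among them, called members in NPC-like, OPC-like and not cycling cells, as given below with the dependence on processing. Bcl2l11 was higher without overlap in AC-like, NPC-like, OPC-like, cycling and not cycling cells, with log2 fold changes of 0.49 ± 0.19, 0.79 ± 0.24, 0.67 ± 0.16, 0.56 ± 0.16 and 0.78 ± 0.14, and in MES-like cells the groups overlapped (0.63 ± 0.30). The share of all genes higher with Xevinapant without overlap was 13.5% in AC-like, 16% in NPC-like, 21.6% in OPC-like, 16.7% in cycling and 18.2% in not cycling cells. Mcl1 was higher without overlap in all 6 states, Bcl2l1 in AC-like, MES-like and NPC-like cells, Bcl2 in OPC-like and cycling cells and Bbc3 in NPC-like cells, none of them called. In MES-like cells the share of all genes higher without overlap was 15%. The median log2 fold change of the 10 stress genes in the 6 states was 0.60 to 1.19, none of them called. These states share their samples, so they are not separate evidence. Bcl2l11 stood at 31.8 and 33.5 CPM with Xevinapant against 24.9, 20.7 and 19.0 CPM with vehicle in cycling cells. In not cycling cells it stood at 36.6 and 34.1 CPM against 22.5, 20.1 and 18.2 CPM. Its fold changes in cycling and not cycling cells were not compared by a test. In NPC-like cells Bbc3 stood at 58.1, 59.1 and 49.6 CPM with vehicle and at 120 and 87.8 CPM with Xevinapant (log2 fold change 0.87 ± 0.19, adjusted p = 0.11), and Xevinapant 1 and 2 held 57 such cells. DESeq2 called Bbc3 there (adjusted p = 0.034), with 2.03% of all genes.

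**Figure D4:**
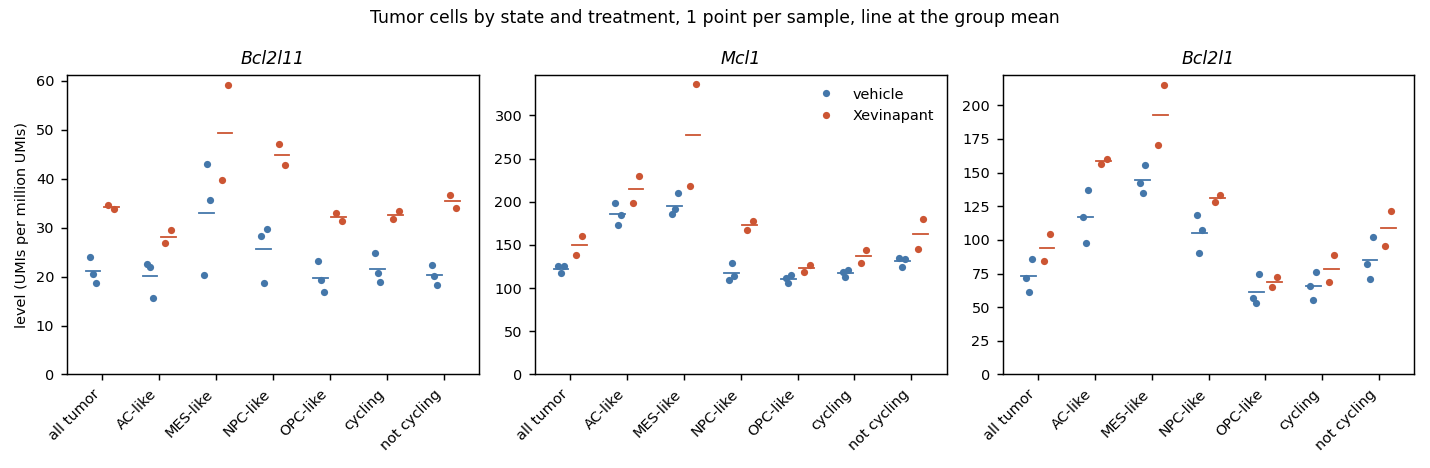
Level of Bcl2l11, Mcl1 and Bcl2l1 (vertical axis, CPM, from 0) in all tumor cells and in each tumor state (horizontal axis), with 1 point per sample, vehicle in blue and Xevinapant in red, and a line at the mean of each group. Xevinapant samples of Bcl2l11 lie above all vehicle samples in every column but MES-like, and Bcl2l1 and Mcl1 are highest in MES-like and AC-like cells under both treatments.

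In the other classes no member was called either. In microglia the log2 fold changes ran from -0.15 ± 0.27 for Bcl2 to 0.54 ± 0.28 for Bcl2l11, and 0.0% of 9157 genes were called. In macrophages and monocytes Bid was at 40.0, 24.5 and 43.4 CPM with vehicle and at 68.4 and 50.7 CPM with Xevinapant, a log2 fold change of 0.67 ± 0.26 (adjusted p = 0.49), and Bcl2l1 at 249, 260 and 230 CPM against 282 and 288 CPM (0.18 ± 0.18), both without overlap, where 0.0331% of genes were called. Such non-overlap with Xevinapant higher was seen in 2 of 10 members and in 14.1% of 11966 genes of at least 10 UMIs in this class. Microglia markers summed to 1189, 1322 and 1468 CPM in this gate with vehicle and to 642 and 712 CPM with Xevinapant, and neutrophil markers to 228, 191 and 237 CPM and to 323 and 260 CPM, both without overlap, and their part in the differences of Bid and Bcl2l1 was not tested. Bcl2l11 was at 75.3, 49.0 and 105 CPM with vehicle and at 97.4 and 126 CPM with Xevinapant in that class, with overlap (0.47 ± 0.24).

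Endothelial cells had 61.0, 90.0 and 92.6 CPM of Bcl2 with vehicle and 160 and 107 CPM with Xevinapant, a log2 fold change of 0.68 ± 0.31 (adjusted p = 0.54). Bad stood at 73.2, 70.7 and 69.5 CPM with vehicle and at 53.3 and 44.9 CPM with Xevinapant (log2 fold change -0.57 ± 0.38, adjusted p = 0.68). Bax and Bbc3 were likewise without overlap, both higher with Xevinapant, and 0.0625% of 4797 genes were called in this class. Bbc3 was low there, at 18.3, 0.0 and 15.4 CPM with vehicle and 25.1 and 29.3 CPM with Xevinapant. In all, 3 of 10 members were higher and 1 lower without overlap, beside 13% and 8.85% of 10086 genes of at least 10 UMIs. The 10 stress genes summed to 988, 1119 and 1042 CPM in these cells with vehicle and to 2496 and 1676 CPM with Xevinapant, without overlap, and their part in the differences of Bcl2, Bax, Bbc3 and Bad was not tested. In T and NK cells, with 2 samples per group, 6 members passed the filter on low counts, and Bcl2 (0.83 ± 0.44), Bak1 (1.10 ± 0.50) and Bcl2l11 (0.51 ± 0.47) were higher without overlap, none with an adjusted p under 0.05, where 0.0% of 2090 genes were called and 0.333 is the smallest exact p. Of 7826 genes of at least 10 UMIs in these 4 samples, 19.9% were likewise higher without overlap. The tested vehicle samples held 20 and 25 T and NK cells. All vehicle T and NK cells, vehicle 2 included, held 12 UMIs of Bak1 and 21 of Bcl2l11. For Bcl2l11, vehicle 4 at 248 CPM lay just below Xevinapant 3 and 4 at 259 CPM. In fibroblasts all 10 members overlapped, Pmaip1 having the log2 fold change farthest from 0 of the 9 tested, at -1.02 ± 0.63, and 0.0% of genes were called. Of 12084 genes of at least 10 UMIs in fibroblasts, 11.9% were higher and 7.45% lower without overlap. Exact permutation tests of the 60 levels of a member in a class can give no p under 0.10 with so few samples. They therefore cannot decide whether a level differed, and their smallest p after Benjamini-Hochberg adjustment was 0.857.

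**Figure D5:**
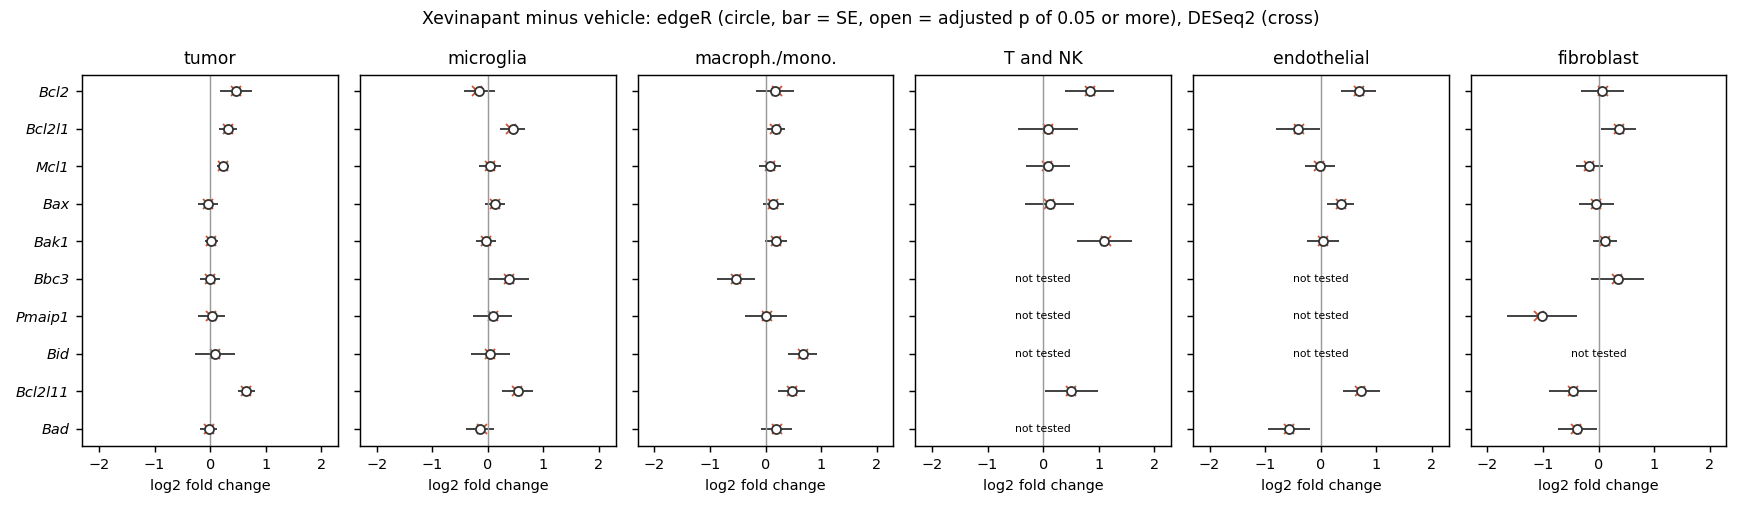
Log2 fold change of each member from vehicle to Xevinapant (horizontal axis) in the 6 classes with at least 2 samples per group, with circles and bars of 1 SE for edgeR, open because no adjusted p was under 0.05, and crosses for DESeq2. Bcl2l11 in tumor cells, at 0.65, lies farthest from 0 in units of its SE, and members that did not pass the filter on low counts are marked as not tested.

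Whether an effect differed between classes was tested as an interaction with tumor cells. No member passed in microglia (0.0% of 11938 genes called), macrophages and monocytes (0.0754%), T and NK cells (0.0%), endothelial cells (0.0168%) or fibroblasts (0.0251%). For Bcl2l11 the differences of the treatment effect from that in tumor cells were -0.19 ± 0.42 in microglia, -0.19 ± 0.36 in macrophages and monocytes, -0.03 ± 0.57 in T and NK cells, 0.11 ± 0.44 in endothelial cells and -1.08 ± 0.49 in fibroblasts on the log2 scale (adjusted p = 0.78 in fibroblasts). Neutrophils had 1 vehicle sample of at least 10 cells, so no test was run there.

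Detection depends on the depth of the cells. A UMI of Bax was found in 76.1% to 82.0% of tumor cells over the 5 samples, of Mcl1 in 66.9% to 74.5%, of Bcl2l11 in 23.2% to 35.8%, of Pmaip1 in 7.60% to 10.9% and of Bid in 4.18% to 7.80%, at a median of 13589 UMIs per tumor cell. Neutrophils of the tested samples, at medians of 1092 to 1670 UMIs, had Mcl1 in 70.0% to 93.8% and Pmaip1 in 26.1% to 30% of cells. With every cell thinned to 1000 UMIs and shallower cells left out, the share for Mcl1 was 11.8% to 15.2% in tumor cells, 18.0% to 35.5% in microglia, 40.7% to 59.9% in macrophages and monocytes and 69.6% to 88.7% in neutrophils. In T and NK cells it was 17.4% to 47.6%, which overlapped that of microglia. Bcl2, thinned, was found in 23.8% to 52.2% of T and NK cells, in 1.41% to 2.50% of tumor cells and in none of the 23, 183 and 62 neutrophils of at least 1000 UMIs in the 3 tested samples. The median depth before thinning was 1533 to 2383 UMIs in the T and NK samples tested. Bcl2l11, thinned, was found in 2.05% to 2.27% of vehicle and in 3.67% and 3.84% of Xevinapant tumor cells (exact permutation p = 0.10).

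The genes whose levels ran most like those of a member over the 32 sums of a sample and class, among 5812 genes of a mean log2 CPM of at least 5, were Card19 (Pearson r = 0.938) and Tmem189 (0.916) for Mcl1, Dennd4b (0.915) and Rgs2 (0.909) for Bcl2l1, and Pml (0.869) and Prkacb (0.844) for Bcl2. For Bid they were Esrra (0.943) and Gpsm3 (0.919), for Bcl2l11 Lrrfip1 (0.907) and Stk40 (0.902), and for Pmaip1 Trim41 (0.800) and Ccnl1 (0.786). Slc16a6 (0.862) and Coro1c (0.843) came first for Bax, Acox3 (0.887) and Arpc4 (0.869) for Bak1, Zfp335 (0.869) and Pcyt2 (0.849) for Bbc3, and Stim1 (0.897) and Chmp2b (0.874) for Bad. Among the members, Mcl1 ran closest to Bcl2l1 and to Bid, both at r = 0.80. The sums of a class come from the same tumors and those of a sample from the same libraries, so these correlations are a description.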

How the data were processed

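Gene by cell matrices of vehicle and Xevinapant tumors were used as the authors deposited them, as raw UMI counts from a probe-based fixed-cell assay. The matrix headers name Cell Ranger 7.1.0, while the study's methods name an earlier version, and the genome is mm10. Names of the Xevinapant matrices also say vehicle; grouping followed the labels of the samples. The 10 members, gene lists and gates were chosen with earlier results of these data known.

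Cells were kept where 200 or more genes were detected, mitochondrial UMIs made up no more than 10% and complexity was 0.8 or higher, and the barcodes with the highest Scrublet scores were removed at a rate of 0.8% per 1000 barcodes, since Scrublet's own threshold called almost none. Low copies of barcodes shared between groups, at a UMI ratio of at least 50, were removed. A gate needed at least 4 marker UMIs of at least 2 markers (3 for tumor cells) and a marker share per 10000 UMIs that was fixed by class, for example 20 for tumor cells, 10 for microglia and 150 for fibroblasts. The classes are gates on marker UMIs and not an annotation of the authors.

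Counts were summed per sample and class of at least 10 cells and tested with edgeR 4.0.16 in R 4.3.3 (quasi-likelihood test, TMM, filterByExpr), with Benjamini-Hochberg adjustment over all genes and a threshold of 0.05. Class and state contrasts kept the sample as a block. The SE given with an edgeR value was worked back from the test, as the absolute log2 value divided by the square root of F. The SE of DESeq2 is its own estimate, so the 2 are not the same quantity. DESeq2 1.42.0, library size without TMM, no filter, other gates, other cell filters, each matrix as 1 mouse and each sample left out were the alternatives. Adding back the low copies, library size for the further gene lists, the matrix number as a block and the alternatives of the state contrasts were chosen after seeing the data. Joined matrices were taken as 1 sample because they were alike, and the sources used here do not say which animal each matrix holds, so p-values measure the spread between these samples. Named genes were all 10 members and, from the other lists, genes past the test, at most 3 of the largest change in each direction. Additional genes of the lists (Apaf1, Casp9 and Vdac1 across classes, Cycs in cycling cells) were named after their values were seen. Simulated counts for tumor cells, 3 samples against 2 with 14452 genes, held 100 changes of 1 and 100 of 2 on the log2 scale. Of these, 75% and 100% were called, with 21 false calls. The counts were drawn separately for each gene, and the adjustment over all genes depends on how many genes change. In the tumor cells themselves no gene was called, so these shares do not give the chance of calling a member. Changes under 1, such as those of all 10 members in tumor cells, were not simulated. Neither were changes in genes as low as Pmaip1 and Bid are there.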

Additional observations from a re-analysis of the deposited data

How the results depend on the processing

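The sample labels number no tumors, and contrasts of classes and states kept the sample as a block. The matrices carry the numbers 1 to 4 in both groups. Full barcodes were shared between the groups only at the same number, 178, 321, 386 and 528 for numbers 1 to 4. Deviations of tumor cells from the group mean correlated between matrices of the same number in 2 of 4 pairs (Pearson r over 16764 genes 0.30, -0.07, -0.29 and 0.24 for numbers 1 to 4). Pairs of unlike number reached as much, such as 0.31 for vehicle 3 and Xevinapant 1. The number was therefore not taken as a pairing of tumors. With the number as replicate block over 8 matrices, a fit chosen after seeing the data, 0 members were called in each class that could be fitted, Bcl2l11 in tumor cells at 0.62 (adjusted p = 0.059, edgeR; 0.32% of genes called), 2 in NPC-like cells (3.8% of genes), 1 in not cycling cells (0.439%) and 0 in the other states. The treatment tests rest on 3 samples against 2, and batch is confounded with treatment. Between treatments, 0 members were called by edgeR in tumor cells, and 1 with DESeq2 and 1 with each of the 8 matrices as 1 mouse, Bcl2l11 in both. In NPC-like cells DESeq2 and the fit without a filter called 1 and the 8 matrices 2, where 2.03%, 4.7% and 5.46% of all genes were called. In OPC-like and not cycling cells DESeq2 (1.62% of genes in both) and the 8 matrices (5.6% and 3.28%) called 1 each. Against tumor cells, 2 members were higher in fibroblasts with library size only, in place of 6 (18.6% of genes). Of tumor states, OPC-like had 1 higher member with library size only (21.9% of genes) and 1 with DESeq2 (28% of genes; 1 to 2 with a sample left out), MES-like had 1 lower member with DESeq2 (23% of genes; 1 to 2 with a sample left out), and AC-like had 0 to 1 lower members with a sample left out. The causes were not tested.

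The log2 fold changes between treatments that changed sign were all of members that had not passed the test. In tumor cells they were Bid (-0.14 to 0.31 with a sample left out), Bbc3 (0.04 with 8 matrices, 0.05 with the replicate block, 0.05 with library size only, 0.00 with the stricter gate, -0.09 to 0.16 with a sample left out), Bax (0.01 with the replicate block, 0.01 with library size only, -0.15 to 0.13 with a sample left out), Bak1 (-0.01 without a filter, -0.03 to 0.07 with a sample left out), Pmaip1 (-0.01 without a filter, -0.10 to 0.13 with a sample left out) and Bad (0.02 with library size only, -0.20 to 0.12 with a sample left out). In microglia they were Bcl2 (0.09 with the stricter gate, 0.11 by highest marker score), Mcl1 (0.00 with the replicate block, -0.17 to 0.22 with a sample left out), Bid (-0.01 with 8 matrices, -0.08 with the replicate block, -0.05 by highest marker score, -0.31 to 0.44 with a sample left out), Bax (-0.01 to 0.24 with a sample left out), Bak1 (-0.18 to 0.10 with a sample left out), Pmaip1 (-0.01 by highest marker score, -0.15 to 0.36 with a sample left out) and Bad (-0.40 to 0.15 with a sample left out). In macrophages and monocytes they were Bcl2 (-0.21 to 0.52 with a sample left out), Mcl1 (-0.11 to 0.26 with a sample left out), Pmaip1 (-0.01 with no doublets removed, -0.05 in cells of at least 1000 UMIs, -0.02 with low copies kept, -0.23 to 0.49 with a sample left out) and Bad (-0.03 to 0.47 with a sample left out). In T and NK cells they were Bcl2l1 (-0.02 by highest marker score, -0.04 in cells of at least 1000 UMIs, -0.14 to 0.46 with a sample left out), Mcl1 (-0.05 by highest marker score, -0.01 in cells of at least 1000 UMIs, -0.17 to 0.37 with a sample left out) and Bax (-0.07 with the stricter gate, -0.15 by highest marker score, 0.00 to 0.33 with a sample left out). In endothelial cells they were Bcl2l1 (0.45 by highest marker score), Mcl1 (0.01 with library size only, 0.02 without a filter, 0.09 by highest marker score, 0.00 in cells of at least 1000 UMIs, -0.25 to 0.19 with a sample left out) and Bak1 (-0.04 by highest marker score, -0.11 to 0.34 with a sample left out). In fibroblasts they were Bcl2 (-0.01 to 0.35 with a sample left out), Bcl2l11 (-0.74 to 0.16 with a sample left out), Bax (0.01 with library size only, 0.00 without a filter, 0.09 by highest marker score, -0.34 to 0.26 with a sample left out) and Bak1 (-0.01 to 0.22 with a sample left out).

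Log2 differences from tumor cells changed sign as follows. In macrophages and monocytes they were Bbc3 (-0.11 with 8 matrices, -0.51 with library size only, -0.13 with DESeq2, -0.30 to 0.23 with a sample left out). In fibroblasts they were Bcl2 (-0.04 with library size only), Bcl2l11 (-0.23 with library size only), Bak1 (-0.24 with library size only) and Bad (-0.05 with library size only), and of the other genes named Casp9 (-0.05 with library size only). Between states, log2 differences changed sign as follows. In MES-like cells they were Bcl2 (-0.03 to 0.18 with a sample left out). In NPC-like cells they were Mcl1 (-0.02 to 0.08 with a sample left out), Bid (-0.05 with 8 matrices, -0.23 to 0.24 with a sample left out), Bax (-0.02 to 0.07 with a sample left out) and Pmaip1 (-0.15 to 0.01 with a sample left out).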

Other observations

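Of the small classes left out of the tests, B cells had 891 CPM of Mcl1 from 54 UMIs in 36 cells (exact 95% Poisson interval 670 to 1163 CPM). Dendritic cells had 738 CPM of Mcl1 (620 to 873 CPM) and 10.8 CPM of Bcl2 from 2 UMIs (1.3 to 38.9 CPM). Mural cells had 62.3 CPM of Bcl2 from 21 UMIs in 50 cells (38.6 to 95.2 CPM). Within tumor states, Bik was higher in AC-like cells by 2.89 ± 0.30, Bcl2l14 in OPC-like cells by 1.75 ± 0.17 and Fbxw7, which encodes the ligase that marks MCL1 for removal, in NPC-like cells by 1.34 ± 0.09 on the log2 scale. Over all tumor cells Bik was at only 0.44 ± 0.18 CPM and Bcl2l14 at 1.03 ± 0.22 CPM (SD, n = 5). Bik was at 45.1 CPM in endothelial cells, and the part of RNA from other cells in these differences was not tested.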
